A study of Mus musculus with 21 samples.

Results

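Slow fibre contractile genes were described in mouse quadriceps, a thigh muscle made mostly of fast fibres, across 7 groups of 3 bulk RNA-seq libraries. The 9 genes were picked by symbol from 53738 in the table: Myh7, Myh7b, Myl2, Myl3, Tnnc1, Tnni1, Tnnt1, Tpm3 and Atp2a2. All 9 were found, and the set was chosen with earlier results of these data known. The mice were adult male C57/Bl6 wildtype animals. Sedentary mice neither trained nor exercised. Untrained mice ran to exhaustion on a treadmill without earlier training, and trained mice did so after 12 weeks of voluntary wheel running. The muscle of both was taken 0 h, 6 h or 72 h after the bout. The bout was a maximal capacity test, which for trained mice followed the training without rest. They had no counterpart that trained without a bout, so training and the bout cannot be told apart in their difference from sedentary muscle. Values are TPM, a transcript's reads per length as a part of the library's sum, so that levels can be compared between genes. TPM carry no read counts, so the depth of the libraries is unknown and no counting error can be given.

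A skeletal muscle fibre contracts with either a slow or a fast set of sarcomere proteins, each made from its own gene. Myosin heavy chain and its light chains form the motor, the troponin complex and tropomyosin switch the thin filament on with calcium, and the SERCA pump takes calcium back into the sarcoplasmic reticulum. Slow fibres are fatigue resistant and oxidative, and most of their genes are shared with the heart ventricle. In bulk muscle, fewer slow fibres and less slow RNA per fibre cannot be told apart.

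The genes lie on 7 chromosomes (GRCm39). Myh7, the slow myosin heavy chain, lies at chr14:55208141-55232084, on the same chromosome as Tnnc1 (slow troponin C, chr14:30930232-30933708). Myl2 (slow regulatory light chain, chr5:122238848-122251545) and Atp2a2 (SERCA2, chr5:122591575-122640903) share chromosome 5. The others are Myh7b (chr2:155453096-155476234), Myl3 (slow essential light chain, chr9:110570929-110599396), Tnni1 (slow troponin I, chr1:135707172-135738727), Tnnt1 (slow troponin T, chr7:4507567-4519381) and Tpm3 (slow tropomyosin, chr3:89979949-90008226). The kit does not mark strand, so reads of an opposite-strand partner cannot be told from those of the gene. Such partners with a mean above 1 TPM were Nisch over Tnnc1 (18.7 TPM), Trpc4ap (25.6 TPM) and Gss (3.96 TPM) at the ends of Myh7b, and Anapc7 over Atp2a2 (4.001 TPM). Mhrt over Myh7, Gm73143 over Tnnt1 and Gm57291 at the end of Atp2a2 also lie on the opposite strand. They are not among the symbols measured, so their levels are unknown. Myh7b, itself at a mean of 0.577 TPM, is the gene with the least signal against its neighbours. Tpm3 and Atp2a2 also make isoforms used outside slow fibres, and a value per symbol sums them.

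Both myosin heavy chain genes carry a microRNA in an intron, on their own strand. They are shown because they are the regulatory RNAs made from the host transcripts, and their seeds (bases 2 to 8) are in capitals. The sequences are RefSeq's (table of GRCm38.p6).
miR-208b-3p, from Myh7: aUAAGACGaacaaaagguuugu
miR-499-5p, from Myh7b: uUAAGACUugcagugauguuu
Both precursor genes, Mir208b at chr14:55213157-55213233 and Mir499 at chr2:155464800-155464878 (GRCm39), were listed at 0 TPM in all 21 libraries. Libraries of this kind do not capture mature microRNAs, so these zeros give no level of the microRNAs.

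Because 8 of the genes moved together (below), the promoters of the set were searched for 6 muscle motifs. The RefSeq table (GRCm38.p6) holds windows of 300 bases, from 250 before to 50 after a transcript start, 32544 of them distinct. It holds 12 windows of 8 of the genes, and none for Atp2a2. The 8 searched are therefore not the 8 that moved together, as they include Myh7b in place of Atp2a2. M-CAT (CATTCC, either strand), the site of TEAD factors, was in 3 of the 12 windows and in 14.6% of all windows. The 3 were 1 each of Myl3, Tnnc1 and Myh7. These 3 windows are shown with the matches in capitals. The Myl3 window also holds 1 SRF CArG box, a motif found in 1.64% of all windows.
Myl3, chr9:110763428-110763727, plus strand: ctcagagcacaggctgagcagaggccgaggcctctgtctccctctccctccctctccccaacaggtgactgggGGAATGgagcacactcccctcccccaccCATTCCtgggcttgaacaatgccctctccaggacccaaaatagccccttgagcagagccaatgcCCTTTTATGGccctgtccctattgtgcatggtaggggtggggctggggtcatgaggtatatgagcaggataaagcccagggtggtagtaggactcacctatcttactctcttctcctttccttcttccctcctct
Tnnc1, chr14:31208062-31208361, plus strand: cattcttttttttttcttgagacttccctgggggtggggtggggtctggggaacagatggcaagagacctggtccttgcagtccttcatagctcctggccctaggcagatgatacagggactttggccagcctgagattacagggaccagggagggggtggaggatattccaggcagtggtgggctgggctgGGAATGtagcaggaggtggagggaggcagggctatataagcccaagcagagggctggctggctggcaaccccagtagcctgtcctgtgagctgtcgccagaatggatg
Myh7, chr14:54994577-54994876, minus strand: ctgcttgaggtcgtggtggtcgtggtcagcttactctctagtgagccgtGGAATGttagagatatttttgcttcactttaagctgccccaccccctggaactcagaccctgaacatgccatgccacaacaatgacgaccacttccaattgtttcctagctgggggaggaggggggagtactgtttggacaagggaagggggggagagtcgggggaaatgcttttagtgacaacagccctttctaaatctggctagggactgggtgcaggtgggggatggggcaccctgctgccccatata
The matches begin 177 and 149 bases before the Myl3 start, 58 before the Tnnc1 start and 201 before the Myh7 start. The E-box CAGCTG was in 5 of the 12 windows, of 3 genes (Tnni1, Myl2 and Tpm3), against 16.4% of all windows. The Tnni1 windows overlap and hold the same site. The ERR half-site AAGGTCA was in 2 of the 12 (Myh7b and Tpm3) against 4.71%. TATAAA, read on the gene's strand alone, was in 1 of the 12 (Tnnt1) against 8.28%. For MEF2, a pattern with fixed outer letters and any letters in its middle was searched. It was in none of the 12 windows and in 3.70% of all. A site with other outer letters would be missed, so the absence of MEF2 sites was not tested. No motif was in windows of more than 3 of the 8 genes searched, and a match is a run of letters, not a bound site.

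The column of untrained 0 h replicate 1 held the same value as that of trained 0 h replicate 1 for all 53738 symbols, 25037 of them above 0. The next most alike columns shared 10 values. The table therefore holds 20 distinct libraries, and the group to which the repeated one belongs cannot be told. It is called the shared library here. The fit of all groups holds it in both 0 h groups, as deposited, and values without it are given for results that touch 0 h and where a call changes. Its level of Mylpf, the fast regulatory light chain, was 11538 TPM against 24348 to 39684 TPM in the other libraries, so it stood apart for that gene. Genes of the mitochondrial genome took 37.7% to 48.0% of the TPM. The 5 fibre markers Acta1, Ckm, Myh4, Mylpf and Tnnt3 summed to between 76296 and 101866 TPM in every library. Since Myh7, Myl2, Myl3 and Tnnc1 are heart genes too, 7 heart markers were read: they summed to 1.20 to 3.90 TPM, of which Tnnt2 alone had a mean above 1 TPM, Myh6 lay between 0.155 and 1.25 TPM, Nppa stayed at or below 0.208 TPM, and Nppb and Myl7 were at or near 0. Summed markers of smooth muscle ran from 23.7 to 56.6 TPM, of endothelium from 29.5 to 47.6 TPM, of fibro-adipogenic cells from 124 to 347 TPM, of macrophages from 3.35 to 9.55 TPM and of satellite cells from 0.826 to 1.52 TPM, and their part in the results was not tested. The labels used here do not say that libraries of a group came from separate mice, so p-values measure the spread between these libraries.

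Myosin genes. Myh7 was measured at 33.7, 33.2 and 89.4 TPM in the sedentary libraries, at 17.8, 11.7 and 27.3 TPM in untrained muscle at 0 h, at 16.4, 35.8 and 17.6 TPM at 6 h and at 37.5, 42.3 and 16.1 TPM at 72 h. Trained libraries had 17.8, 64.1 and 27.0 TPM at 0 h, 83.7, 29.7 and 59.6 TPM at 6 h and 28.7, 20.4 and 43.0 TPM at 72 h. The 3 sedentary libraries differed among themselves by more than most groups differed, and no group of the 7 stood clear of its neighbour in the order of means. Myh7b, a relative of Myh7 with little transcript in limb muscle, lay between 0.275 and 1.06 TPM and was below the 1 TPM mean required for testing. Without that requirement its largest fold change against sedentary muscle was a log2 value of -0.43, at trained 0 h (limma, adjusted p = 0.327).

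Myl2 was measured at 187, 191 and 327 TPM in sedentary muscle, 104, 78.6 and 148 TPM in untrained muscle at 0 h, 96.7, 107 and 77.4 TPM at 6 h and 132, 144 and 106 TPM at 72 h. Trained muscle had 104, 184 and 144 TPM at 0 h, 492, 138 and 224 TPM at 6 h and 70.1, 109 and 126 TPM at 72 h. All 3 sedentary libraries were above every exercised library except 2 of trained 6 h, whose 3 values spread over a range from below to above the sedentary ones. Myl3 was measured at 155, 166 and 246 TPM in sedentary muscle, 87.3, 85.4 and 97.0 TPM in untrained muscle at 0 h, 79.7, 77.8 and 65.0 TPM at 6 h and 129, 150 and 114 TPM at 72 h. Trained muscle had 87.3, 175 and 116 TPM at 0 h, 162, 76.2 and 91.0 TPM at 6 h and 54.4, 80.5 and 86.8 TPM at 72 h. The Myl3 libraries of untrained 0 h and 6 h muscle lay close together and far below the sedentary ones, and those of untrained 72 h lay between.

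Thin filament genes and the calcium pump. Tnnc1 was measured at 65.0, 39.8 and 106 TPM in sedentary muscle, 25.9, 22.7 and 30.6 TPM in untrained muscle at 0 h, 21.8, 41.2 and 23.1 TPM at 6 h and 110.5, 31.5 and 63.1 TPM in trained muscle at 6 h. Tnni1 ran from 11.1 to 68.4 TPM over the 20 libraries. Tnnt1 was measured at 82.1, 54.8 and 131 TPM in sedentary muscle, and in untrained muscle at 31.2, 32.2 and 44.4 TPM at 0 h, 25.1, 53.8 and 28.2 TPM at 6 h and 58.1, 60.8 and 43.0 TPM at 72 h. Its trained libraries had 31.2, 103 and 60.9 TPM at 0 h, 136, 53.5 and 80.5 TPM at 6 h and 46.6, 51.9 and 62.1 TPM at 72 h. For Tnnt1, Tnni1, Tnnc1, Tpm3, Myh7 and Atp2a2, untrained 6 h replicate 2 was the highest of its group and reached above trained 6 h replicate 2, the lowest of its own. Tpm3 was measured at 89.9, 57.1 and 138 TPM in sedentary muscle, and in untrained muscle at 37.2, 40.1 and 46.8 TPM at 0 h, 31.2, 63.7 and 38.8 TPM at 6 h and 69.8, 73.8 and 45.2 TPM at 72 h. Its trained libraries had 37.2, 100.1 and 73.8 TPM at 0 h, 132, 45.5 and 85.2 TPM at 6 h and 47.8, 55.4 and 65.8 TPM at 72 h. The lowest library of both genes was untrained 6 h replicate 1. Atp2a2 was measured at 36.6, 30.2 and 58.8 TPM in sedentary muscle, and in untrained muscle at 21.6, 23.7 and 27.2 TPM at 0 h, 17.3, 29.9 and 20.8 TPM at 6 h and 29.9, 32.3 and 23.8 TPM at 72 h. Its trained libraries had 21.6, 55.8 and 33.3 TPM at 0 h, 77.4, 29.7 and 49.6 TPM at 6 h and 34.3, 34.8 and 40.1 TPM at 72 h. At 72 h the trained libraries of Atp2a2 were all above the untrained ones.

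**Figure D1:**
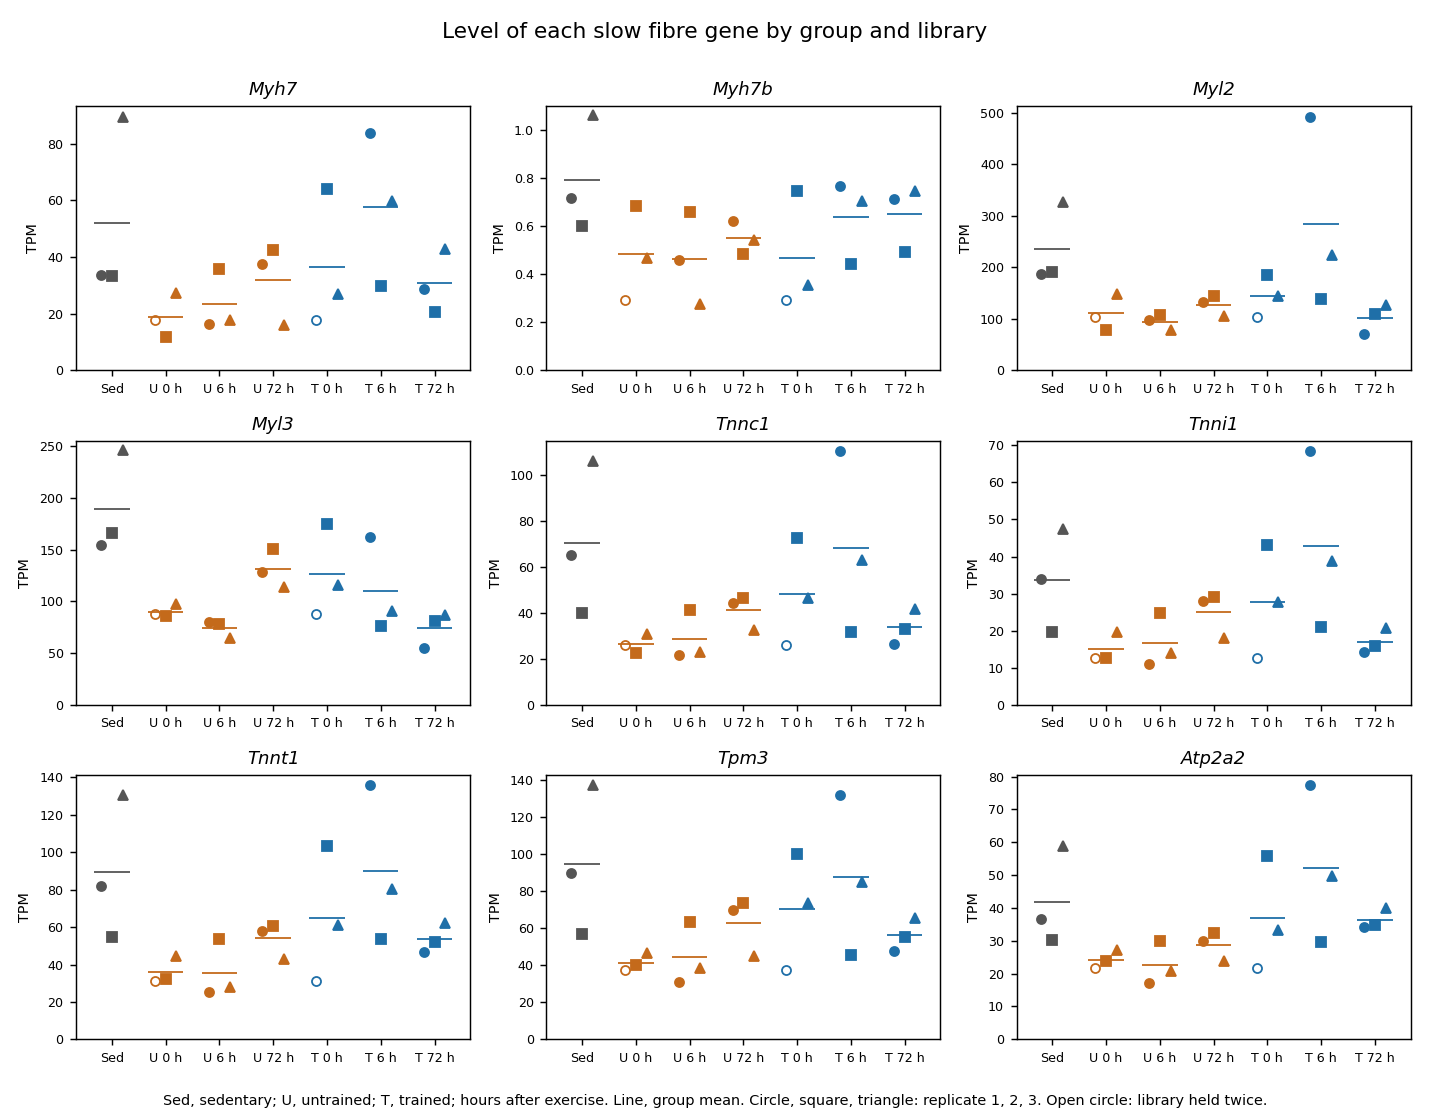
TPM of each of the 9 slow fibre genes (vertical axis, from 0) in the 7 groups, 1 panel a gene; each point is a library, lines are group means, and open circles mark the library found in both 0 h groups. Trained 6 h replicate 1 and sedentary replicate 3 are the highest points of most panels, and Myl2 reaches 492 TPM in the former.

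In the order of group means, neighbouring groups had ranges that did not overlap for 5 neighbour pairs over the 9 genes. These were sedentary above trained 0 h for Myl2, sedentary above untrained 72 h and untrained 0 h above untrained 6 h for Myl3, trained 72 h above untrained 0 h for Tnnt1, and trained 72 h above untrained 72 h for Atp2a2. All other neighbours overlapped. The share of such pairs over all genes was not counted, so 5 cannot be called few or many.

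The slow genes varied more between libraries of a group than most genes did. From the lowest to the highest of the 20 libraries, the 8 genes above 1 TPM spanned from 4.42-fold (Tpm3) to 7.65-fold (Myh7). Their SD within groups on the log2(TPM + 0.5) scale was 0.36 (Myl3) to 0.72 (Myh7), against a median of 0.12 to 0.13 for genes of the same level. Between 87.8% (Myl3) and 94.7% (Myh7) of those genes had a lower SD. The same libraries were high for most of them. By the mean log2 level of Myh7, Myl2, Myl3, Tnnc1, Tnni1 and Tnnt1, the highest library was trained 6 h replicate 1 (7.11), followed by sedentary replicate 3 (7.02) and trained 0 h replicate 2 (6.55), and the lowest was untrained 0 h replicate 2 (4.94). How much slow muscle each piece of quadriceps held was not recorded in the labels, and its part in this spread was not tested.

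Exercised against sedentary muscle. This comparison asks how the slow genes stood after a bout in muscle with and without earlier training. At 0 h, all 8 tested genes were lower in untrained muscle than in sedentary muscle, with a median log2 fold change of -1.10 against 0.10 over all 11819 tested genes, 3475 of which were lower. Of the 8, Myl3 alone passed the test (log2 fold change -1.04 ± 0.28 SE, limma with Benjamini-Hochberg adjustment, adjusted p = 0.0328; a call also needs a change of at least 1.5-fold). Over all tested genes 3.59% were called in this comparison. An unadjusted p below 0.05 (limma) was found for 7 of the 8 and for 2860 of all 11819. Without the shared library all 8 were lower by a median of -1.05, and Myl3 was lower by as much (-1.02, adjusted p = 0.0811) but was not called. Leaving out 1 library at a time kept the call in 1 of 6 cases.

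At 6 h, untrained muscle again had all 8 genes lower, with a median of -1.15. Myl3 fell (-1.32 ± 0.28, adjusted p = 0.00606) and Myl2 fell (-1.28 ± 0.38, adjusted p = 0.0468), 2 of 8 genes where 4.42% of all tested genes were called. The fall of Myl3 was called under each of 18 alternative settings and left-out libraries, with adjusted p up to 0.0423. That of Myl2 was lost in all 6 cases with 1 library left out, and without the shared library its adjusted p was 0.0592 while Tnnt1 was called (-1.30, adjusted p = 0.0472). The other 6 genes had log2 values between -0.85 (Atp2a2) and -1.30 (Tnnt1). By an unadjusted p below 0.05 (limma) there were 7 of the 8 and 2574 of all 11819. At 72 h the 8 genes were lower by a median of -0.59 and none was called, in a comparison with 1 call over all genes (0.00846%). By an unadjusted p below 0.05 (limma) there was 1 of the 8, Myl2 (-0.84 ± 0.38), and 682 of all 11819.

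Trained muscle was closer to sedentary muscle at 0 h and 6 h. At 0 h the 8 genes had a median of -0.54 and none passed, where 3.74% of all genes were called. An unadjusted p below 0.05 (limma) was found for 1 of the 8, Myl3, and for 3217 of all 11819. Without the shared library the median was -0.12. At 6 h the median was 0.06, with 4 genes above and 4 below sedentary, none called where 3.85% of all genes were. Myl3 stood apart from the rest there, at -0.83 ± 0.28 (adjusted p = 0.0716), while the other 7 genes had values from -0.15 to 0.27. Myl3 alone of the 8 had an unadjusted p below 0.05 (limma), as had 2854 of all 11819. At 72 h all 8 were lower again, with a median of -0.78. Myl3 had its largest difference (-1.35 ± 0.28, adjusted p = 0.0514), followed by Myl2 (-1.19 ± 0.38, adjusted p = 0.218), and none was called among 0.169% of all genes. An unadjusted p below 0.05 (limma) was found for 3 of the 8 and 1379 of all 11819. Without the shared library the adjusted p of Myl3 was 0.0479 and it was called. These 6 comparisons share the sedentary libraries, of which replicate 3 was high for every slow gene.

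**Figure D2:**
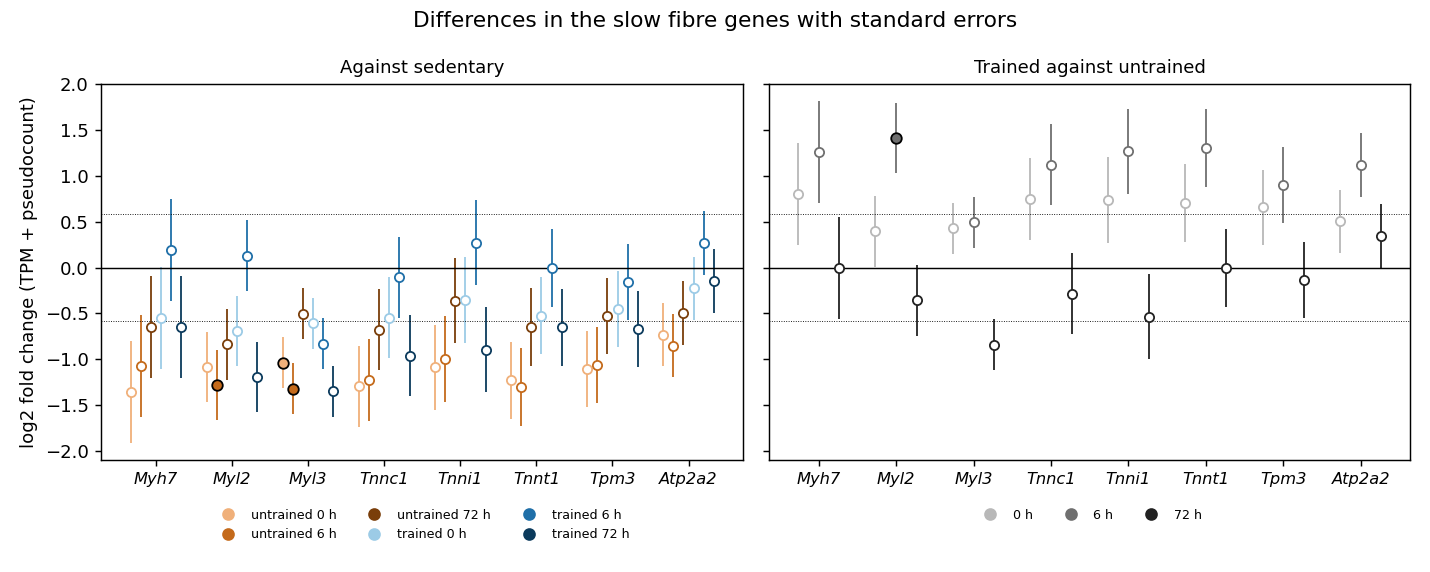
Log2 fold change of log2(TPM + 0.5) with its standard error (vertical axis) for the 8 tested genes; on the left each exercised group against sedentary, on the right trained against untrained at each time point. Filled points with a black rim passed the test (Myl3 at untrained 0 h and 6 h, Myl2 at untrained 6 h and in trained against untrained muscle at 6 h), open points did not, and dotted lines mark a 1.5-fold change either way.

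By a test of any difference among the 7 groups (limma F test), Myl3 (adjusted p = 0.0113) and Myl2 (adjusted p = 0.0311) passed, 2 of 8 genes where 34.6% of all tested genes did. Without the shared library Myl3 passed (adjusted p = 0.0137) and Myl2 did not (adjusted p = 0.0559).

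Trained against untrained muscle. This comparison asks how the slow genes differed between muscle with and without 12 weeks of running, at a matched time after the bout. The bout ran to exhaustion, and the paper reports better performance of trained mice in such tests. Training and the size of the bout therefore cannot be told apart here. At 0 h all 8 genes were higher in trained muscle, with a median log2 fold change of 0.68, and none passed. The comparison called 0% of all genes. An unadjusted p below 0.05 (limma) was found for none of the 8 and for 143 of all 11819. Here the shared library stands in both arms. Without it the 8 genes had values from 0.59 (Myl2) to 1.20 (Myh7), with a median of 1.02, and again none was called (adjusted p = 1 for each), with Tnnt1 alone at an unadjusted p below 0.05 (1.06 ± 0.47). At 6 h all 8 were higher, with a median of 1.19 against -0.04 over all genes. Myl2 rose (1.41 ± 0.38, adjusted p = 0.0480), 1 of 8 where 2.01% of all genes were called. Values of the others ran from 0.49 (Myl3) to 1.30 (Tnnt1, adjusted p = 0.0988), with Atp2a2 at 1.12 ± 0.35 (adjusted p = 0.0832). All but Myl3 had an unadjusted p below 0.05 (limma). Myl2 was 492, 138 and 224 TPM in trained and 96.7, 107 and 77.4 TPM in untrained libraries, with no overlap. The call of Myl2 depended on single libraries: it held in 1 of 6 cases with 1 library left out, its log2 value without trained 6 h replicate 1 was 0.92, and without the shared library its adjusted p was 0.0593.

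At 72 h the median was -0.21, with Atp2a2 alone higher in trained muscle (0.35 ± 0.35, adjusted p = 0.693) and Myl3 lowest (-0.84 ± 0.28, adjusted p = 0.180). None of the 8 was called, among 0.245% of all genes; 1 had an unadjusted p below 0.05. The difference between the training contrasts at 72 h and 6 h was negative for all 8 genes, from -0.77 (Atp2a2) to -1.80 (Tnni1), and none was called where 0.55% of all genes were. Averaged over the 3 time points, all 8 were higher in trained muscle by a median of 0.51, from 0.03 ± 0.16 (Myl3) to 0.68 ± 0.32 (Myh7). Atp2a2 came nearest to the threshold (0.66 ± 0.20, adjusted p = 0.102), and none was called among 0.372% of all genes, with 4 of the 8 at an unadjusted p below 0.05. When the shared library was left out the median was 0.63, from 0.10 (Myl3) to 0.82 (Myh7). All but Myl3 then had an unadjusted p below 0.05, 7 of 8, with Atp2a2 at 0.74 ± 0.20 (adjusted p = 0.0716) and none called. The share of all genes at that p is not set beside the unadjusted counts at 6 h, at 72 h and for the average.

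Slow against fast paralogues. Each slow gene was set against the fast gene of the same role within the library, which removes any scaling between libraries. The slow gene was a small part of each pair. Myh7 made up 0.147% to 1.44% of the summed TPM of Myh7, Myh1, Myh2 and Myh4, and Tnnc1 0.0753% to 0.514% of Tnnc1 and Tnnc2. Myl3 made up 0.511% to 2.16% of Myl3 and Myl1, and Tpm3 0.337% to 1.84% of Tpm3 and Tpm1. Atp2a2 made up 0.727% ± 0.229 (SD, n = 3) of Atp2a2 and Atp2a1 in sedentary muscle, 0.369% ± 0.0832 in the untrained 6 h group and 1.00% ± 0.458 in the trained one, and at 72 h 0.516% ± 0.0563 and 0.648% ± 0.0364 in the same order.

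The log2 slow to fast ratio was compared between 8 trained and 8 untrained libraries, with the shared library left out and labels permuted within time points. This gives 2400 relabellings and a smallest possible two-sided p of 0.000833, since each relabelling has a mirror image. By this two-sided exact permutation test, adjusted over 8 pairs, the ratio was higher in trained muscle for Atp2a2 to Atp2a1 (by 0.83, at the smallest possible p, adjusted p = 0.00667), Tnnt1 to Tnnt3 (0.88, adjusted p = 0.0233) and Tpm3 to Tpm1 (0.74, adjusted p = 0.0422). For Atp2a2 the difference was 0.80 at 0 h, 1.35 at 6 h and 0.33 at 72 h, and for Tnnt1 1.06, 1.44 and 0.14. Myh7, Myl2, Tnnc1 and Tnni1 had differences of 0.80, 0.70, 0.83 and 0.74 with adjusted p between 0.06 and 0.0676. Myl3 to Myl1 differed by 0.16 (adjusted p = 0.555), with 0.67 and 0.57 at 0 h and 6 h and -0.76 at 72 h. Only Atp2a2 passed at 6 h and 72 h alone (0.84, adjusted p = 0.04), and none of the 8 passed with both 0 h groups as deposited. Leaving out 1 library at a time, Atp2a2 passed in 16 of 16 cases, Tnnt1 in 13 and Tpm3 in 8. The 8 pairs share libraries and their slow genes moved together, so they are not 8 separate results.

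**Figure D3:**
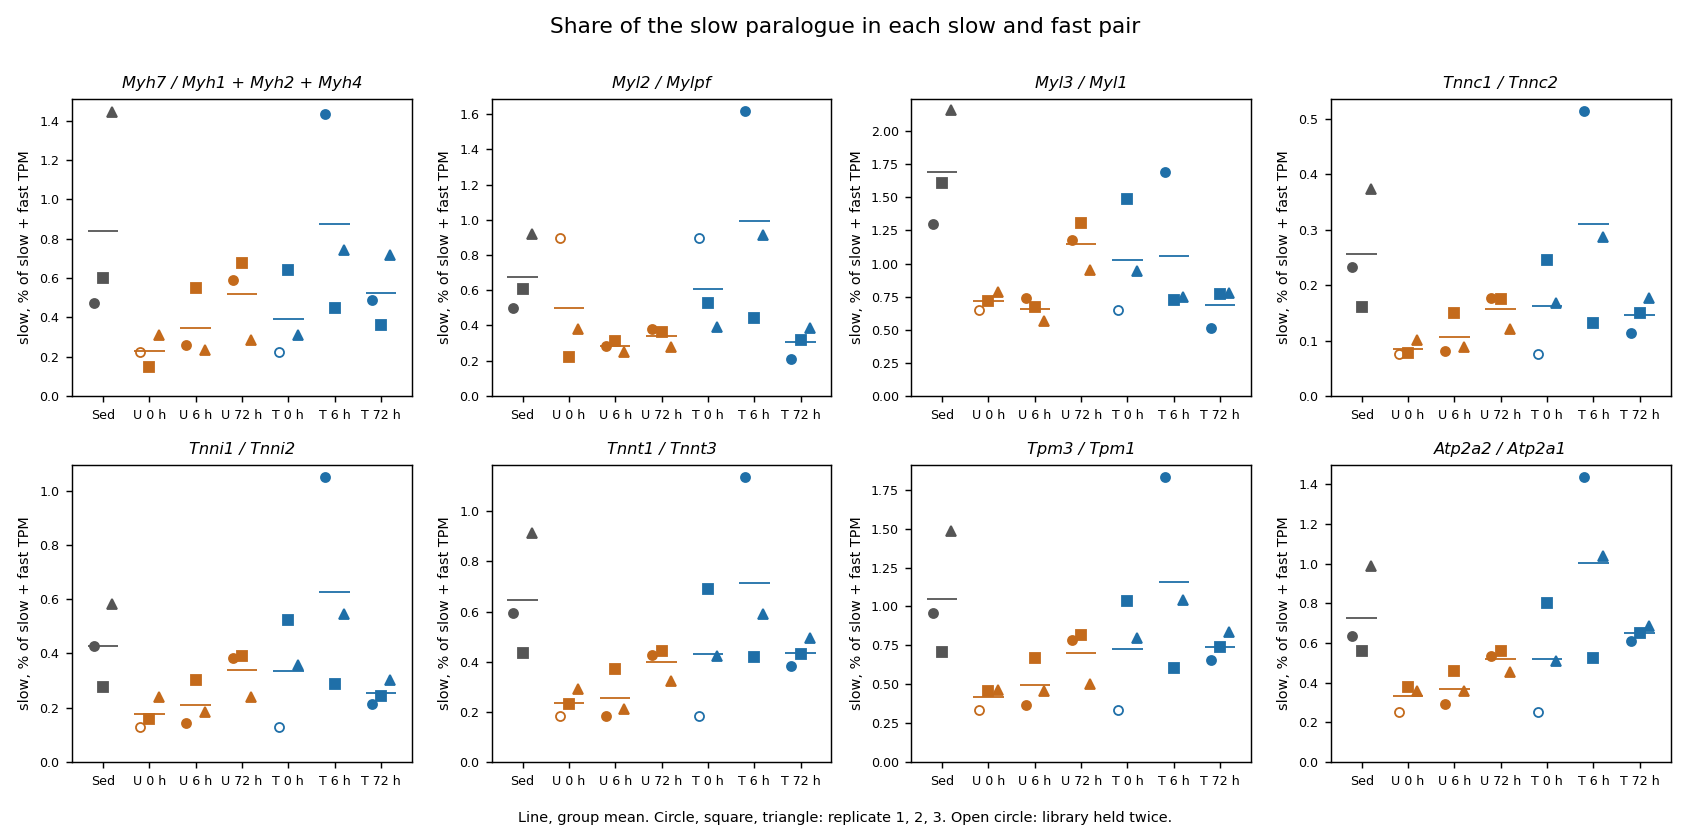
Share of the slow gene in the summed TPM of each slow and fast pair, in percent (vertical axis, from 0), by group; points are libraries, lines group means, and open circles the library found in both 0 h groups. The share is at most 2.16% in every pair, and for Atp2a2 all 3 trained points at 72 h lie above the untrained ones.

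Of 14 fast genes tested, 1 was called in any of the comparisons of groups. This was Myh1 (fast IIx myosin), higher by 0.64 in trained muscle at 0 h against sedentary (limma, adjusted p = 0.0134). Over all genes 3.74% were called there, and the 14 were chosen with earlier results of these data known. By the F test over all groups 11 of the 14 passed, against 34.6% of all tested genes. Without the shared library Myh1 was called higher than in sedentary muscle in trained muscle at 0 h (0.81) and 72 h (0.67) and in untrained muscle at 0 h (0.64), with adjusted p up to 0.0302. Averaged over time points, 13 of the 14 were lower in trained than in untrained muscle, with a median of -0.105 on the log2 scale, none called and 6 at an unadjusted p below 0.05 (limma). Over all genes 7211 of 11819 were lower. The share of all genes at that unadjusted p is not set beside the 6.

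Movement of the slow genes with one another. Over the 20 distinct libraries the log2 levels of the 8 tested genes rose and fell together. The 28 pairs had a median Pearson's r of 0.903 (0.568 to 0.983). For deviations from the group means, over 19 libraries without the shared one, the median was 0.880. These values describe libraries that share the TPM scaling, and the genes are measured in the same tissue piece. Tnnc1 and Tpm3 were the most alike (0.983). The pairs with Myl3 were the least alike, at 0.568 (with Atp2a2) to 0.788 (with Tnnc1), while the other 21 pairs lay between 0.814 and 0.983. Pairs with the scarce Myh7b had values from 0.488 to 0.709. The first principal component of the 8 genes held 88.4% of their variance and the second 6.56%.

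**Figure D4:**
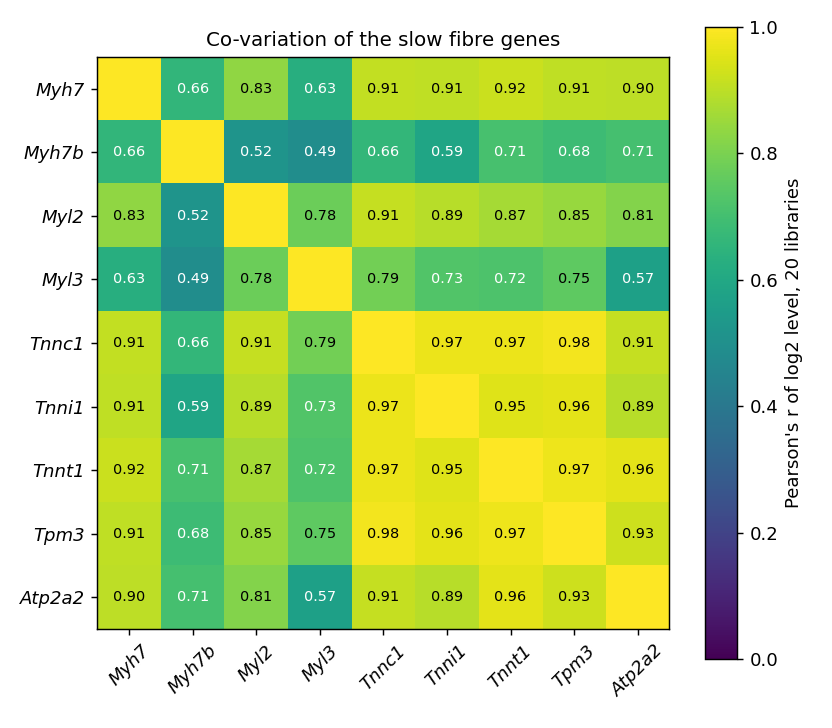
Pearson's r of the log2 level between each pair of the 9 slow fibre genes over 20 distinct libraries (colour from 0 to 1, value in each cell). The Myl3 and Myh7b rows and columns hold the lower values, down to 0.488 between those genes.

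Since Myl3 stood apart, the ratio between each 2 of the 8 genes was compared between trained and untrained muscle, a choice made after the values were seen. Of 28 ratios, 5 passed the same exact permutation test (adjusted over 28). In all 5 the ratio of Myl3 to the other gene was lower in trained muscle. Myl3 itself was not lower on average over time points, with a log2 difference of 0.10 without the shared library. The other 5 genes were higher by 0.58 (Tpm3) to 0.78 (Tnnt1). The 5 ratios share Myl3 and their other genes moved together, so they are not 5 separate results. The same libraries had already set Myl3 apart, so these p-values describe that observation and add no separate support for it. The ratios to Tnnt1 and Atp2a2 were at the smallest possible p. The log2 differences were -0.69 against Tnnt1 (adjusted p = 0.0117), -0.65 against Atp2a2 (adjusted p = 0.0117), -0.56 against Tnnc1 (adjusted p = 0.0233), -0.53 against Tnni1 (adjusted p = 0.0373) and -0.49 against Tpm3 (adjusted p = 0.0373). Against Myh7 and Myl2 the differences ran the same way, with the ratio of Myh7 to Myl3 higher by 0.73 and that of Myl2 to Myl3 by 0.45 (adjusted p = 0.0733 for both). The ratio of Myl3 to Atp2a2 was 4.29 to 4.80 in untrained and 1.59 to 2.31 in trained libraries at 72 h, and 2.60 to 4.62 against 1.84 to 2.57 at 6 h, without overlap at either time. At 0 h, without the shared library, it was lower by only 0.12 on the log2 scale. With 1 library left out at a time, the ratios to Tnnt1 and Atp2a2 passed in 16 of 16 cases, that to Tnnc1 in 14, to Tpm3 in 8 and to Tnni1 in 6. With both 0 h groups as deposited, those to Tnnt1, Atp2a2 and Tnnc1 passed, and at 6 h and 72 h alone those to Tnnt1 and Atp2a2 did.

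**Figure D5:**
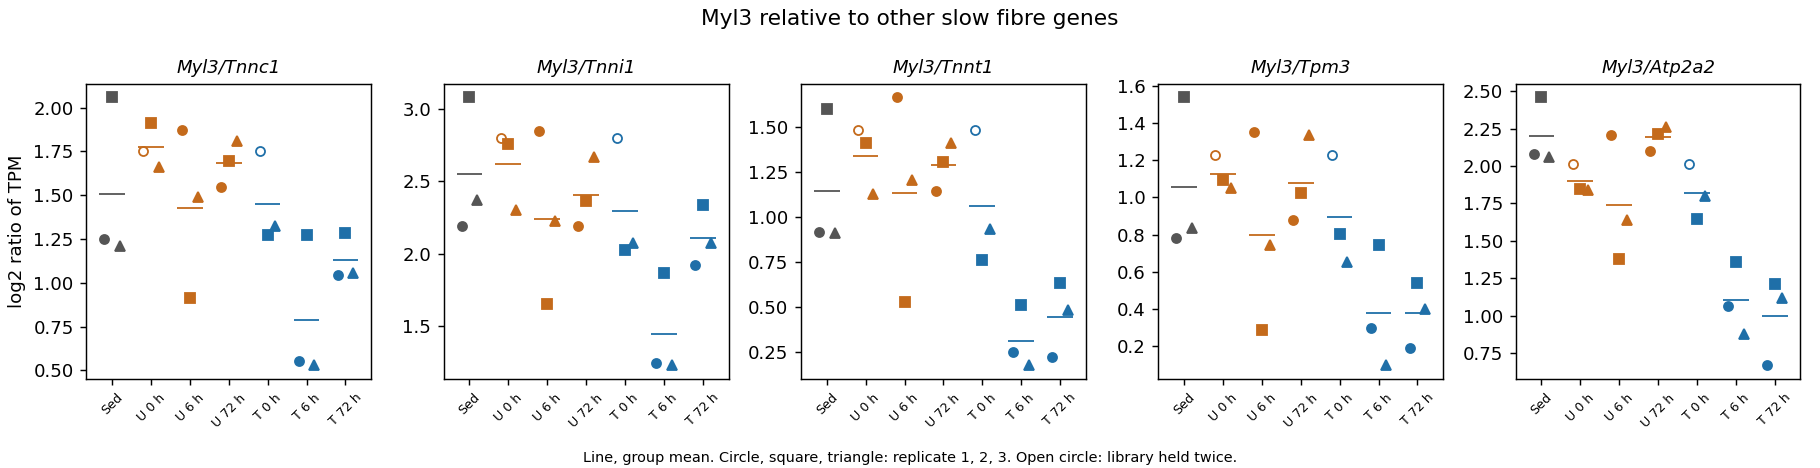
Log2 ratio of Myl3 to 5 other slow fibre genes (vertical axis) by group; points are libraries, lines group means, and open circles the library found in both 0 h groups. For Atp2a2 (right) the trained libraries at 6 h and 72 h all lie below the untrained ones of the same time.

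Genes most like the slow genes. The mean log2 level of the 6 slow-restricted genes was compared with each tested gene over the 20 libraries. The median r over all 11819 genes was 0.03, and 12 of them were above 0.8, which were the 8 slow genes, 6 of them parts of that mean, and 4 others. The 4 were Gm49130 (r = 0.961, mean 3.61 TPM), Gm29015 (0.956, 221 TPM), Gm31251 (0.941, 5.69 TPM) and Strit1 (0.906, 10.2 TPM). Gm49130 is a long non-coding RNA at chr14:55177812-55180309, within the Myh6 locus and 27832 bases from Myh7, on the opposite strand. Gm31251 overlaps Myh7 in RefSeq, and Gm29015 was not in the annotation used here, so reads shared with a slow gene could not be checked for either. Strit1 encodes DWORF, a micropeptide that activates SERCA. It was followed by Mat2b (0.779), Coro6 (0.736), Cog2 (0.734), Pou6f1 (0.720), Cd2bp2 (0.687) and Myoz2 (0.687), the last a slow and cardiac Z-disc protein. These are descriptions over libraries that share groups and scaling.

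Of 11 other tested genes linked to slow fibres, 3 were called higher in untrained muscle at 6 h against sedentary: Csrp3, a Z-disc LIM protein of stretched muscle (log2 2.95), Ankrd2, another stretch-responsive gene (1.84), and Fhl1 (0.88). Over all genes 4.42% were called in that comparison, though the list was chosen with earlier results of these data known. Without the shared library Fhl1 was not called there (adjusted p = 0.0522), while at 72 h it was called lower in the trained than in the untrained group (-1.22, adjusted p = 0.0426). In trained against untrained muscle at 6 h, Csrp3 (-2.65) and Ankrd2 (-1.56) were lower, and Sln (2.17), which encodes the SERCA inhibitor sarcolipin, and Mb, myoglobin (0.73), were higher. Over all genes 2.01% were called at 6 h. Sln had a mean of 0.851 ± 0.412 TPM (SD, n = 3) in the untrained 6 h group and 5.68 ± 2.32 TPM in the trained one. At 72 h Csrp3 (-2.91) and Ankrd2 (-1.41) were lower in trained muscle, and Csrp3 was at 13.3 ± 3.35 TPM there against 102 ± 15.7 TPM in untrained muscle. Over all genes 0.245% were called at 72 h. In trained muscle at 72 h against sedentary, 9 of the 11 were lower, with a median of -0.63 against -0.04 over all genes. Of the 11, 1 was called there, where 0.169% of all genes were. An unadjusted p below 0.05 (limma) was found for 9 of them and for 1379 of all 11819. Over the libraries, the r with the mean level of the slow contractile genes was -0.05 for Csrp3, -0.10 for Ankrd2, 0.20 for Mb and 0.47 for Sln.

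Of 23 tested genes known to set or follow fibre type, 2 were called in untrained muscle at 6 h against sedentary and 6 in trained muscle. Ppargc1a, which encodes the coactivator PGC-1alpha of oxidative fibres, rose in both (2.65 and 3.15), as did Rcan1, a target of calcineurin (2.40 and 1.19). In trained muscle Esrrg (1.41), Ppara (1.26) and Esrrb (0.80), nuclear receptors of oxidative metabolism, rose too and Tead1 fell (-0.61). The percent of all genes called in these comparisons is given above, and this list too was chosen with earlier results known. Over the 20 libraries, the r of these 6 genes with the slow set was between -0.10 and 0.44.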

How the data were processed

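The authors aligned paired-end reads of unstranded TruSeq libraries of quadriceps RNA with STAR 2.7.9 and quantified them with Salmon 1.5.0 on GRCm39, and deposited TPM (length-scaled transcript abundance) per gene symbol for 21 libraries; the submitters' processing notes also list DESeq2 3.16. TPM are scaled to the sum of each library, so abundant genes affect all others, and they keep no depth. Groups came from the sample labels, and 0 columns were left unassigned. The 11819 symbols whose mean reached 1 TPM were compared as log2(TPM + 0.5) in 1 limma 3.58.1 fit of all 7 groups (R 4.3.3, intensity trend), which entered all 21 columns as deposited, the repeated library as a replicate of both 0 h groups (14 residual degrees of freedom) with Benjamini-Hochberg adjustment. Fold changes on this scale understate those of low genes. Calls needed a 1.5-fold change either way besides an adjusted p under 0.05, and in the F test over groups the adjusted p alone. Ratios within a library were tested by two-sided exact permutation of labels within time points, without the shared library. Both tests were tested on simulated data. The genes named are the 9 slow genes, called or role-defining genes of the lists, and the 10 other genes most correlated with the slow genes. Members and lists were chosen with earlier results of these data known. Alternatives were other pseudocounts, filters, scalings, samples and a replicate block.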

Additional observations from a re-analysis of the deposited data

How the results depend on the processing

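No called value of a slow gene changed sign under any alternative. In untrained against sedentary muscle at 0 h, the count of called slow genes went from 1 to 0 with no filter on expression, without the shared library and with only the groups compared, and was 0 to 1 with 1 library left out. At 6 h it went from 2 to 1 with no filter, with the replicate block and with only the groups compared, to 3 (Myl3, Myl2 and Tnnt1) under median-of-ratios scaling and under rescaling without the mitochondrial genome and the 10 top genes, and was 1 to 2 with 1 library left out. In trained against sedentary muscle it was 0 to 1 at 6 h with 1 library left out (1 without trained 6 h replicate 1), and at 72 h it went from 0 to 1 with a mean of at least 5 TPM, with median-of-ratios scaling and without the shared library. In trained against untrained muscle at 6 h it went from 1 to 0 with no filter, without the shared library, with the replicate block and with only the groups compared, to 2 (Myl2 and Atp2a2) under both of these scalings, and was 0 to 2 with 1 library left out. Averaged over times it was 0 to 1 with 1 library left out. By the F test it went from 2 to 1 with no filter, without the shared library and with the replicate block, and was 1 to 4 with 1 library left out. Both scalings combined with leaving out the shared library, chosen after seeing the data, gave 1 call in untrained against sedentary muscle at 0 h and 3 at 6 h, 1 in trained against sedentary muscle at 72 h, 3 in trained against untrained muscle at 6 h and 1 averaged over times, with 2 by the F test under median-of-ratios scaling and 3 under rescaling. The cause of these changes was not tested. Replicate numbers did not pair the libraries: deviations of same-numbered libraries had a median r of 0.018 (-0.115 to 0.134, 62 pairs). Over all genes, fitting only the groups compared gave 220 calls in place of 522 in untrained against sedentary muscle at 6 h, 262 in place of 442 and 264 in place of 455 in trained against sedentary muscle at 0 h and 6 h, 10 in place of 1 in untrained against sedentary muscle at 72 h, and 27 in place of 238 in trained against untrained muscle at 6 h.

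The slow to fast ratio of Myl3 turned from 0.16 to -0.0939 at 6 h and 72 h alone. With both 0 h groups as deposited, differences were 0.76 for Tnnt1, 0.63 for Tpm3 and 0.74 for Atp2a2, no longer passing, and at 6 h and 72 h alone 0.79 for Tnnt1 and 0.62 for Tpm3, also not passing. With 1 library left out they ran from 0.62 to 0.98 for Myh7, 0.55 to 0.86 for Myl2, 0.02 to 0.27 for Myl3, 0.67 to 1.00 for Tnnc1, 0.58 to 0.90 for Tnni1, 0.75 to 1.00 for Tnnt1, 0.61 to 0.88 for Tpm3 and 0.72 to 0.97 for Atp2a2. Depth is unknown, so the counting error of the low genes, Myh7b above all, cannot be given.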
